A study of Mus musculus with 4 samples.

Results

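The nuclear genes of oxidative phosphorylation were followed in mouse lungs taken whole at embryonic day 16.5 (E16.5). Oxidative phosphorylation is carried out in the inner mitochondrial membrane, where complexes I to IV pass electrons from NADH and succinate to oxygen and pump protons, and complex V, the ATP synthase, uses the proton gradient to make ATP. Most subunits are encoded in the nucleus and a small core is encoded in mitochondrial DNA, so that both genomes have to be expressed together. Several subunits of complex IV, cytochrome c oxidase, exist as a widely expressed isoform and an alternative isoform of muscle, testis or oxygen-poor tissue. STK11 is a kinase that activates AMPK, the sensor of a low cellular energy charge.

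The genes were taken by symbol: those beginning with Nduf, Uqcr, Atp5 or Cox4 to Cox8, together with Sdha, Sdhb, Sdhc, Sdhd, Cyc1 and Cycs. This gave 92 of the 22556 genes of the table, of which 89 were kept, selected on their measured level: the mean over the 4 libraries had to reach 1 FPKM. FPKM is the number of reads per kilobase of transcript, scaled to the number of mapped reads. All 89 also passed the filter of the test, which was set at 0.5 FPKM. Because the minimum was set on measured values, the levels below are a description and were not tested. Just inside it lay Cox6a2 with a mean of 1.027 FPKM and Cox8b with 1.80 FPKM. Just outside it lay Ndufs5 with 0.426 FPKM and Cox7b2 with 0.271 FPKM, and Cox8c was listed at 0 in every library. Ndufs5, an accessory subunit of complex I, was listed at under 0.001 FPKM in 3 libraries and at 1.70 FPKM in Shh-Stk11 2, whereas every other accessory subunit had a mean of at least 9.92 FPKM. Of its 50-base stretches, 31.1% also occur in 1 other annotated gene.

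Control embryos (2 libraries, Control 1 and Control 2) were Shh-Cre; Stk11F/+, with 1 floxed allele of Stk11, and Shh-Stk11 embryos (2 libraries) were Shh-Cre; Stk11F/F, with both alleles floxed. All 4 libraries thus carried the Cre driver and no library was free of a floxed allele. Shh-Cre is active in the endoderm that gives rise to the lung epithelium, so that the mesenchyme, vessels and blood of an Shh-Stk11 lung kept their Stk11, and the RNA was extracted from the whole organ. The labels gave the strain as C57BL/6, the methods of the study mixed backgrounds, and neither gave the litter.

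The targeted Stk11 averaged 44.75 ± 1.07 FPKM in Control lungs against 27.71 ± 2.49 FPKM in Shh-Stk11 lungs (SD, n = 2 each), a log2 fold change of -0.69 (SE 0.12, limma adjusted p = 0.0499). The lung epithelial genes Sftpc and Nkx2-1 were high in every library, at 8005 FPKM or more and at 169.5 FPKM or more, while Ucp1, which defines the mitochondria-rich brown fat, was at 0.0451 FPKM or less. The step size of the low values corresponded to between 30.5 M and 37.6 M reads per library. None of the genes encoded in mitochondrial DNA was analysed here.

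Genes of oxidative phosphorylation, most of which encode subunits, were among the abundant transcripts of the lung. Their median level was 154.5 FPKM, against 11.06 FPKM over the 13770 genes tested, and 62 of 89 exceeded 100 FPKM while 13 were under 20 FPKM. Per length of transcript the median level of the genes of a complex was highest for complex V (372.9 FPKM, 15 genes), followed by complex III (250.4 FPKM, 9 genes), complex IV (235.5 FPKM, 18 genes), the accessory subunits of complex I (168.3 FPKM, 28 genes), complex II (135.5 FPKM, 4 genes) and the core subunits of complex I (87.46 FPKM, 7 genes). The 4 complex I assembly factors, which help to build the complex and are not part of it, had a median of 16.6 FPKM. The ranges of neighbouring complexes in this order overlapped widely. Complex III spanned 96.57 to 641.9 FPKM and complex V 14.22 to 713.1 FPKM.

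**Figure D1:**
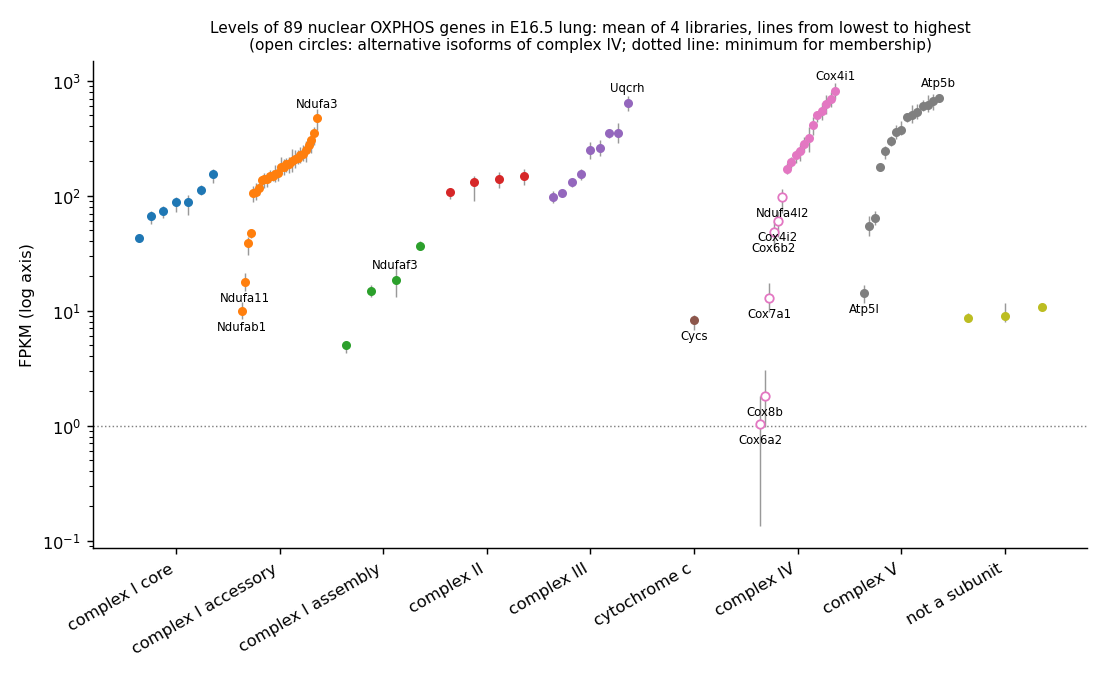
Mean FPKM over 4 libraries (log axis) of each of the 89 genes by complex, with grey lines from the lowest to the highest library. Open circles mark the 6 alternative isoforms of complex IV, which lie below the 12 other complex IV genes, and the dotted line marks 1 FPKM, the minimum for a gene to be included.

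The highest level of all belonged to Cox4i1, the widely expressed form of a regulatory subunit of complex IV, at 794.8 and 954.5 FPKM in the Control pair and 696.5 and 828.7 FPKM in the Shh-Stk11 pair. Atp5b, the catalytic beta subunit of the ATP synthase, followed at 680 and 772.9 FPKM in the Control pair and 665.3 and 734.2 FPKM in the Shh-Stk11 pair. Both sets of values interleaved between the genotypes. Uqcrh, the hinge protein of complex III, led its complex with a mean of 641.9 FPKM. Among the accessory subunits of complex I the highest mean was 469.7 FPKM, for Ndufa3, and in complex II 146.9 FPKM, for Sdhb, which carries its iron-sulfur clusters. At the low end of complex V, Atp5l, which encodes subunit g of the membrane part, was at 14.22 FPKM, and 84.8% of its 50-base stretches also occur in other annotated genes. Cycs, the electron carrier cytochrome c, was at 8.27 FPKM and shared 28.5% of its stretches with 76 other genes. Reads of such genes can be divided among copies, so their levels are uncertain. Of the 89 genes, 42 shared no 50-base stretch with another annotated gene and 27 shared more than 10%.

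The c ring of the ATP synthase is built from a single mature protein that 3 genes encode. Atp5g3 supplied 83.8% and 83.1% of their summed FPKM in the Control libraries and 83.5% and 84.3% in the Shh-Stk11 libraries. Atp5g1 supplied 8.35% to 9.72% and Atp5g2 6.80% to 8.03%. The proportions thus moved by little between libraries. For Atp5g2 87.4% of the 50-base stretches were shared with other genes.

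Besides the assembly factors, the prefixes took in 3 genes that encode no subunit. Cox4nb, now named Emc8, belongs to the ER membrane complex, Atp5s encodes coupling factor B, and Atp5sl, now Dmac2, acts in the assembly of complex I. Their means were 10.75, 9.002 and 8.64 FPKM.

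Sequences before the transcription starts are shown because NRF1, GABPA and YY1 are textbook regulators of this gene class, and the letters show which genes carry a match. In RefSeq (GRCm38.p6), 73 of the 89 genes had 79 promoters of 250 bases before to 50 bases after a start. The NRF1 letters CGCATGCG, which read the same on both strands, were in 11 of 79 promoters (13.9%) against 1.87% of all 32851 promoters. The YY1 letters AAGATGGCG, on either strand, were in 9 promoters (11.4%) against 1.40%, and the ETS letters CCGGAAGT bound by GABPA, on either strand, in 5 promoters (6.33%) against 3.89%. At least 1 of the 3 was in 23 promoters (29.1%) against 6.79%. Promoters were not matched on base composition, and a match in letters is a description of the sequence. Capitals below mark the NRF1 letters in 30-base windows on the strand of the gene, for 6 genes of different roles: the electron carrier Cycs, the accessory subunit Ndufa11, the c ring gene Atp5g2, the assembly factor Ndufaf4, the complex III subunit Uqcr11 and the complex IV subunit Cox6a1.
Cycs (chr6:50566612-50566641, minus strand): ccatgctagctCGCATGCGcgcgcacaaac
Ndufa11 (chr17:56717692-56717721, plus strand): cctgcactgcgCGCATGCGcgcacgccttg
Atp5g2 (chr15:102671070-102671099, minus strand): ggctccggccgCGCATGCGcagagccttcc
Ndufaf4 (chr4:24897960-24897989, plus strand): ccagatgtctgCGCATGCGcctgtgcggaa
Uqcr11 (chr10:80406808-80406837, minus strand): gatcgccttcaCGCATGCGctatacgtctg
Cox6a1 (chr5:115349101-115349130, minus strand): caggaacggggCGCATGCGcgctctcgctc

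The YY1 letters lay elsewhere. In 7 of the 8 genes that held them they began 23 to 36 bases after a start, on the strand of the gene, whereas the NRF1 letters lay after the start in 1 of 11 genes (Uqcrc1). Over all promoters with the YY1 letters, 45.3% had them after the start on the strand of the gene. Capitals mark these letters in accessory and core subunits of complex I and in a complex V gene.
Ndufa9 (chr6:126849097-126849126, minus strand): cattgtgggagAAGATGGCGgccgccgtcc
Ndufc1 (chr3:51408915-51408944, minus strand): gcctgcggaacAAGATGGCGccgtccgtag
Ndufs7 (chr10:80249462-80249491, plus strand): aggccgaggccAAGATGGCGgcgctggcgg
Atp5j2 (chr5:145191500-145191529, minus strand): accaggacttcAAGATGGCGtcactcggtg

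Between the genotypes, the design asks whether loss of Stk11 in the epithelium was accompanied by another level of these genes. No gene of oxidative phosphorylation passed the test: 0 of 89 had a limma adjusted p under 0.05, whereas 2.27% of all genes tested did (313 genes). Without adjustment, 6 of the 89 genes (6.74%) had a p under 0.05, against 15.2% of all genes tested and 9.98% of other genes of like length and level. All 6 had the lower level in Shh-Stk11 lungs, which for Cox6a2, included only through its Control values, was built into the selection. This count was 2 without Control 2, 4 without Shh-Stk11 1, 3 without a filter on low values and 11 with the replicate number as a block. The smallest adjusted p was that of Cox6b2 (0.0731), followed by Ndufaf3 (0.112), Atp5l (0.230), Ndufa4l2 (0.232), Cox4i2 (0.264) and Cox6a2 (0.3). In bulk lungs, fewer cells of a type and less RNA per cell cannot be told apart. With 2 libraries on each side the smallest p of an exact permutation test is 0.33, so each p rests on the variance that limma shares over all genes.

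The precision of these comparisons was moderate. The median half-width of the 95% interval of the log2 fold change was 0.41, and for 86 of the 89 genes the interval excluded a change of 1 in either direction. Only for 20 genes was the estimate within 0.1 of 0. The table is therefore compatible with small changes in either direction for most of them, and a p above the threshold does not show equal levels.

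**Figure D2:**
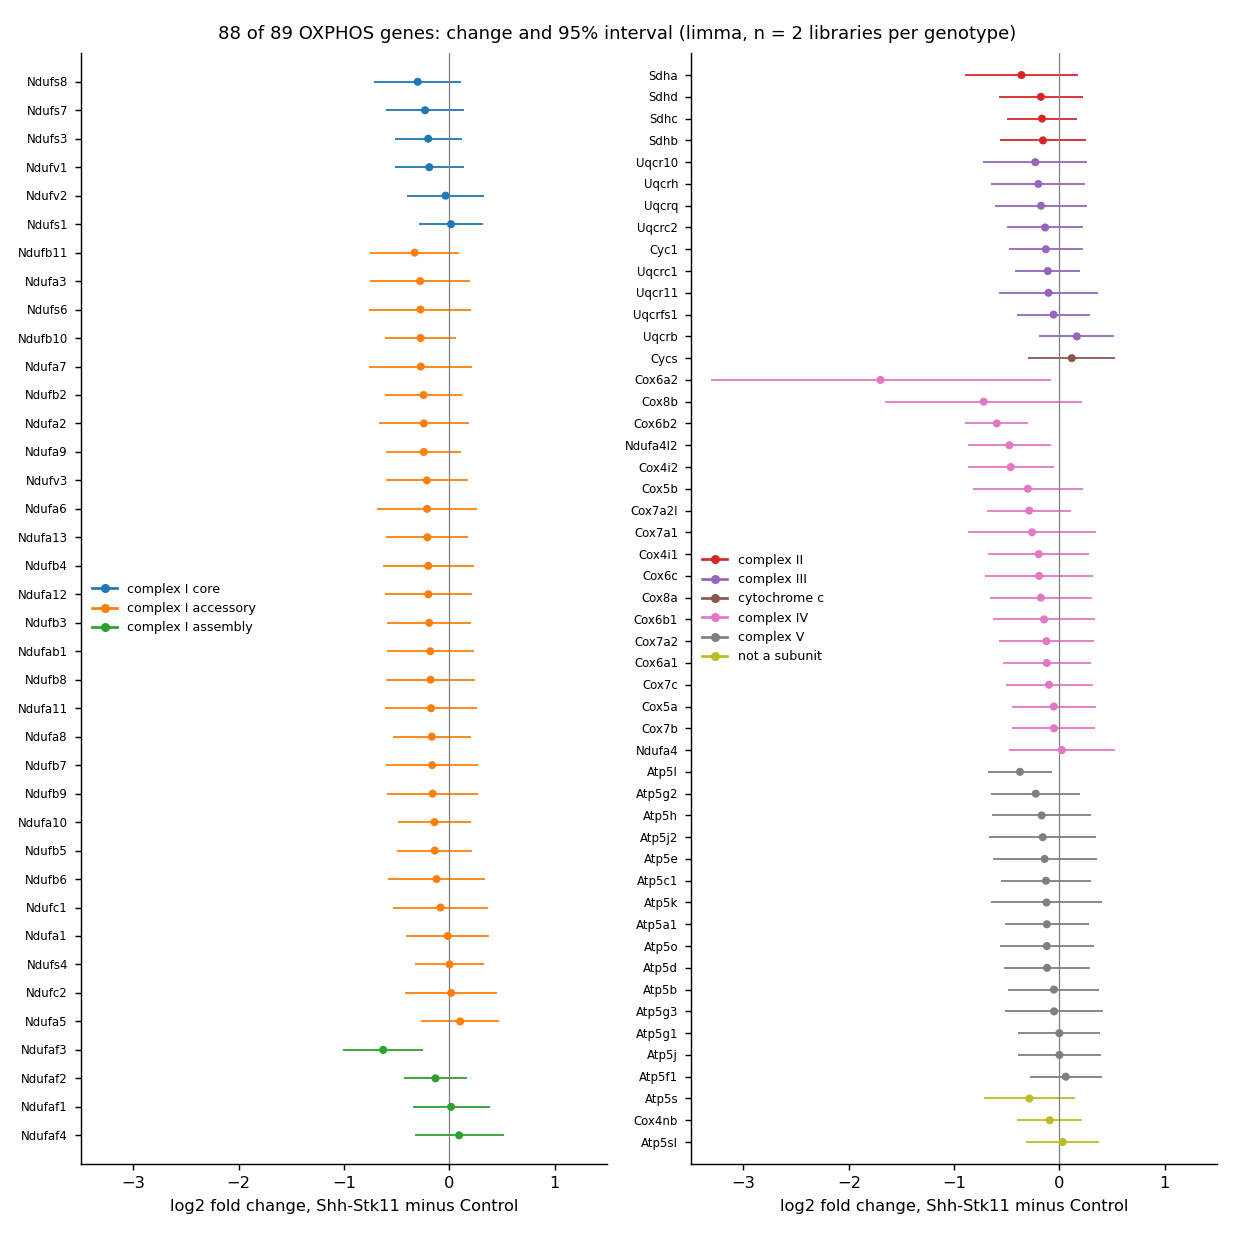
Log2 fold change (Shh-Stk11 minus Control, on the log2(FPKM + 0.1) scale) of 88 of the 89 genes with its 95% interval from limma, n = 2 libraries per genotype, coloured by complex. Most points lie a little below 0, and 6 intervals exclude 0.

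Of the 89 genes, 78 (87.6%) had the lower mean in Shh-Stk11 lungs and 11 the higher, with a median log2 fold change of -0.165. Over all genes tested 58.3% were lower and the median was -0.048. These transcripts are short: their median length was 934 bases against 3055 bases over all genes tested, and length went with the difference between genotypes. In the shortest of 10 equal groups of length, the median over other genes was a log2 fold change of -0.19, and in the longest of +0.19. The 55 genes of oxidative phosphorylation in the shortest group had a median of -0.18, and the 16 in the next group -0.18 against -0.15 for other genes there. Relative to the median of its own length group the middle gene of the 89 differed by -0.003, and 45 of the 89 lay below that median. Among 2625 other genes of like length and level (between the 10th and 90th percentiles of the 89 in both), 82.4% were lower and the median was -0.14. The match was loose: their median length was 1717 bases and their median level 37.84 FPKM, against 934 bases and 154.5 FPKM for the 89. This limit holds wherever shares of genes of like length and level are given. The part of length, or of what goes with it in the libraries, in the difference was not tested. When the trend with length and GC content was removed from each library, the median became +0.01 and 38 of 89 were lower. When libraries were scaled to the same sum of FPKM it was -0.006 with 47 lower, but the median of all genes tested moved to 0.108. Relative to all genes the median of the 89 was thus -0.114 with this scaling and -0.116 without it.

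**Figure D3:**
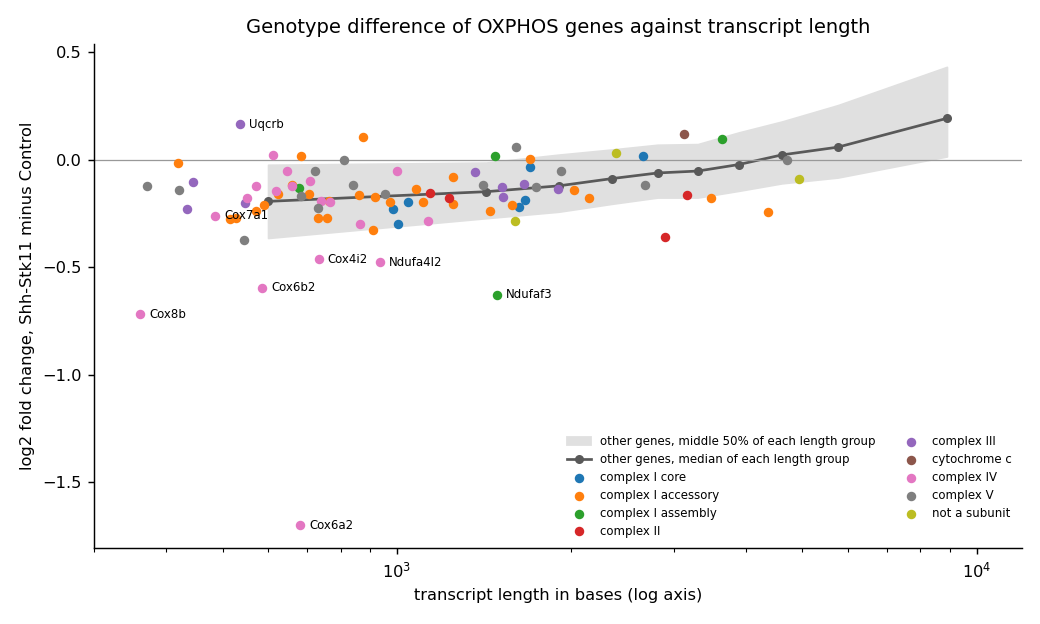
Log2 fold change (Shh-Stk11 minus Control) of the 89 genes against transcript length in bases (log axis), coloured by complex, with the median (line) and the middle 50% (band) of other genes in 10 groups of length. The 89 genes scatter around the line, which rises from -0.19 for the shortest group to 0.19 for the longest, and Ndufaf3 and 5 of the 6 labelled complex IV isoforms lie below the middle 50% of their length group, Cox7a1 being within it.

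The groups overlapped for most of these genes. Both Shh-Stk11 values lay below both Control values in 19 of 89 genes (21.3%), against 27.6% of all genes tested and 41.2% of other genes of like length and level. Both lay above in 1 gene, Uqcrb (1.12%), against 19.2% of all genes tested and 5.14% of other genes of like length and level. Shares of non-overlapping genes were thus no higher than the background in either direction. The 19 genes include Cox6a2, which was included only through its Control values, so that its lower level was built into the selection.

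The libraries of a genotype differed from each other by more than the median difference between genotypes. All 89 genes were higher in Control 2 than in Control 1, by a median absolute log2 difference of 0.26, and 84 were higher in Shh-Stk11 2 than in Shh-Stk11 1, by 0.25 over the 89 genes. Shh-Stk11 2 exceeded Control 1 in 69 of 89 genes, with a median log2 difference of +0.11. The other pairs of libraries went the opposite way: Shh-Stk11 1 exceeded Control 1 in 17 genes (median -0.15) and Control 2 in 1 (-0.45), and Shh-Stk11 2 exceeded Control 2 in 6 (-0.16). Control 2 was the highest library for 83 genes (93.3%), compared with 34.2% of all genes tested and 65.4% of other genes of like length and level, and Shh-Stk11 1 the lowest for 71 (79.8%), compared with 33.9% and 61.8%. The full order Control 2, Shh-Stk11 2, Control 1, Shh-Stk11 1 held for 49 genes (55.1%), against 6.14% of all genes and 16.6% of genes of like length and level. The genes are not independent of each other and shared the 4 libraries, so these shares are descriptions.

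As a share of all FPKM the 89 genes followed this order only at the top. They made up 3.19% and 3.57% of all FPKM in Control 1 and Control 2, and 3.28% and 3.54% in Shh-Stk11 1 and 2, so that Control 1 and not Shh-Stk11 1 was lowest. The libraries numbered 2 had the higher share in both genotypes, and the groups overlapped. Whether the labels' replicate numbers denote a shared litter or preparation was not stated.

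**Figure D4:**
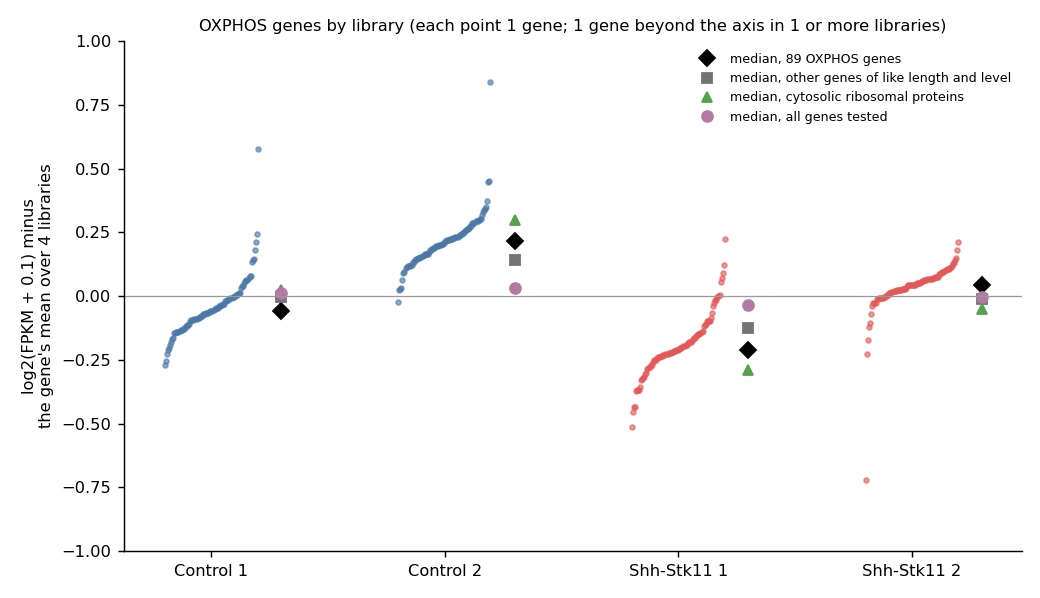
For each library, log2(FPKM + 0.1) of each of the 89 genes minus the gene's mean over the 4 libraries (small points), beside medians of the 89 genes, of other genes of like length and level, of cytosolic ribosomal protein genes and of all genes tested. The median of the 89 genes was highest in Control 2 (0.22) and lowest in Shh-Stk11 1 (-0.21), with Control 1 at -0.06 and Shh-Stk11 2 at 0.05.

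Neighbouring gene classes were read in the same way. The 76 genes of the mitochondrial ribosome, which translates the mitochondrially encoded subunits, had a median difference of -0.15 on the log2 scale, with 69 lower and 0 past the threshold. The 81 cytosolic ribosomal protein genes tested, also short transcripts, had a median of -0.33, and all 81 were lower, with 69 whose groups did not overlap (beside 27.6% of all genes tested and 41.2% of genes of like length and level) but 0 past the threshold. The medians of the other lists were -0.07 for 14 genes of the TCA cycle, -0.09 for 12 genes of coenzyme Q synthesis, -0.08 for 29 assembly factors outside the symbol rule, -0.06 for 8 carriers and channels and -0.14 for 21 import genes, and 0 genes of these lists were past the threshold.

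Among 17 regulators of mitochondrial gene expression, with a median of -0.009, 1 passed the threshold. Ppargc1a, which encodes the coactivator PGC-1alpha that drives mitochondrial biogenesis, was at 2.28 and 1.99 FPKM in the Control pair and 7.20 and 7.97 FPKM in the Shh-Stk11 pair. Both Shh-Stk11 values were more than 3 times either Control value, and the log2 fold change was 1.78 (SE 0.16, limma adjusted p = 0.00525). The adjusted p was 0.0721 with the replicate number as a block, 0.058 without Control 1, 0.0776 without Control 2 and 0.18 without a filter on low values. Its transcript is long, 6464 bases, and other genes of its length group had a median of +0.06. Tfam, which maintains mitochondrial DNA, had a log2 fold change of 0.07 (adjusted p = 0.849), Nrf1 -0.05 (adjusted p = 0.877), Gabpa 0.17 (adjusted p = 0.569) and Yy1 -0.01 (adjusted p = 0.979). So a higher level of Ppargc1a stood beside oxidative phosphorylation genes of which none was past the threshold.

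Complex I transfers electrons from NADH to ubiquinone. Of its 7 core genes, 6 were lower (median log2 fold change -0.20) and in 5 of these the groups did not overlap, beside 27.6% of all genes tested and 41.2% of genes of like length and level. The most negative estimate was that of Ndufs8, an iron-sulfur subunit, at 90.39 and 101.9 FPKM in the Control pair and 67.62 and 89.94 FPKM in the Shh-Stk11 pair. Shh-Stk11 2 came within 1 FPKM of Control 1, and the log2 fold change was -0.30 (SE 0.17, adjusted p = 0.478), or -0.09 without Shh-Stk11 1. Ndufs1, the largest subunit and the longest core transcript, was nearly level, at 42.32 ± 4.27 FPKM in the Control pair and 42.73 ± 0.567 FPKM in the Shh-Stk11 pair (n = 2 each).

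Of the 28 accessory genes, 25 were lower and 3 higher, with a median of -0.19, and the groups did not overlap in 4 (14.3%), all lower, which is under the 27.6% of all genes tested and the 41.2% of genes of like length and level. Ndufb11, a membrane-arm subunit on the X chromosome, had the most negative estimate. It was at 251.3 and 301 FPKM in the Control pair and 196.7 and 244.2 FPKM in the Shh-Stk11 pair (log2 fold change -0.33, SE 0.18, adjusted p = 0.454, and -0.17 without Shh-Stk11 1). Ndufa5 had the most positive one, at 116.9 and 146.1 FPKM in the Control pair and 144.4 and 136.6 FPKM in the Shh-Stk11 pair (log2 fold change 0.10, SE 0.16, adjusted p = 0.801), with both Shh-Stk11 values between the Control values. Ndufa3 had 461.3 and 567.1 FPKM against 375.8 and 474.7 FPKM, with overlap.

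The other X-linked genes were Ndufa1, with a log2 fold change of -0.01 (adjusted p = 0.979), and Cox7b, with -0.05 (adjusted p = 0.912). The sexes of the libraries were not balanced: Xist, the RNA that coats the silenced X of female cells, had 65.1, 90.75 and 169.1 FPKM in Control 1, Control 2 and Shh-Stk11 1 but 0.239 FPKM in Shh-Stk11 2, where the Y-linked Ddx3y reached 23.54 FPKM. Shh-Stk11 2 was not the lowest or the highest library for any of the 3 X-linked genes.

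Among the assembly factors of complex I, Ndufaf3 stood apart. It was at 20.39 and 24.58 FPKM in the Control pair and 13.11 and 15.94 FPKM in the Shh-Stk11 pair. Both Shh-Stk11 values lay below both Control values, and the log2 fold change was -0.63 (SE 0.16, limma adjusted p = 0.112), with a 95% interval from -1.01 to -0.25. None of its 50-base stretches was shared with another gene, and its estimate lay between -0.77 and -0.46 under every alternative run. Ndufaf4, which acts with NDUFAF3 at an early step of assembly, had the opposite sign, at 4.24 and 5.48 FPKM in the Control pair and 5.43 and 4.90 FPKM in the Shh-Stk11 pair (log2 fold change 0.09, SE 0.18, adjusted p = 0.844). Ndufaf2, the most abundant of the 4, had a log2 fold change of -0.13 (SE 0.12, adjusted p = 0.681).

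Complex II links the TCA cycle to the chain. All 4 of its genes had negative estimates, between -0.36 and -0.16, and the groups overlapped in 3. Sdha, the flavoprotein that oxidizes succinate, was at 141.5 and 148.5 FPKM in the Control pair and at 89.67 and 142 FPKM in the Shh-Stk11 pair. Its low mean came from Shh-Stk11 1, while Shh-Stk11 2 lay above Control 1 (log2 fold change -0.36, SE 0.22, adjusted p = 0.51, and -0.03 without Shh-Stk11 1). Sdhb had a log2 fold change of -0.16 (SE 0.17, adjusted p = 0.717), and of -0.010 without either Control 2 or Shh-Stk11 1.

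In complex III, 8 of 9 genes were lower, with a median of -0.13. Uqcr10, a small subunit, had the most negative estimate, at 324.9 and 431.1 FPKM in the Control pair and 285 and 357.5 FPKM in the Shh-Stk11 pair (log2 fold change -0.23, SE 0.20, adjusted p = 0.652), with -0.025 without Control 2 and -0.066 without Shh-Stk11 1. Uqcrb, an ubiquinone-binding subunit, was the exception, at 315 and 341.1 FPKM in the Control pair and 364.4 and 370.5 FPKM in the Shh-Stk11 pair. Its groups did not overlap, but the log2 fold change of 0.16 (SE 0.15) had an adjusted p of 0.655, and 43.4% of its 50-base stretches occur in 5 other genes. Cycs was at 6.81 and 9.15 FPKM in the Control pair and 8.56 and 8.58 FPKM in the Shh-Stk11 pair, with both Shh-Stk11 values between the Control values (log2 fold change 0.12, SE 0.17, adjusted p = 0.795).

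In complex V, 14 of 15 genes were lower, with a median of -0.12 and estimates from -0.38 to 0.06. Atp5l was at 15.56 and 16.58 FPKM in the Control pair and 11.67 and 13.09 FPKM in the Shh-Stk11 pair, without overlap (log2 fold change -0.38, SE 0.13, adjusted p = 0.23, and -0.10 with the length and GC trend taken out), with the shared stretches given above. Atp5f1, subunit b of the peripheral stalk, had the most positive estimate, at 175.6 ± 15.7 FPKM in the Control pair and 182.7 ± 8.04 FPKM in the Shh-Stk11 pair (n = 2 each, adjusted p = 0.881). The catalytic Atp5b differed by -0.05 (SE 0.18, adjusted p = 0.922). For the c ring genes the log2 fold changes were -0.001 for Atp5g1, -0.22 for Atp5g2 and -0.05 for Atp5g3, all with overlapping groups. Among the 3 further genes that encode no subunit, Atp5s was lower without overlap (log2 fold change -0.29, adjusted p = 0.514, and -0.05 without Control 2). Cox4nb had -0.09 (adjusted p = 0.782) and Atp5sl 0.03 (adjusted p = 0.942).

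Complex IV reduces oxygen to water, and its genes were described as 12 widely expressed genes and 6 alternative isoforms, a split whose difference was not tested. Over the 12 the median log2 fold change was -0.14, between -0.30 and 0.02. The 6 alternative isoforms had estimates between -1.70 and -0.26, with a median of -0.54, and the unadjusted p was under 0.05 for 4 (beside 15.2% of all genes tested and 9.98% of genes of like length and level), but none passed the adjusted threshold. Among these 4, Cox6a2 reached the minimum of 1 FPKM only through the Control libraries (means of 1.521 and 0.5328 FPKM), so that a lower Shh-Stk11 level was built into its inclusion, which leaves 3 of 5 without it. Both Shh-Stk11 values were below both Control values in 1 of the 12 and 4 of the 6 (3 of 5 without Cox6a2), beside 27.6% of all genes tested and 41.2% of genes of like length and level. Cox7a1 (-0.26) lay within the range of the 12. All 6 kept a negative sign in every scaling but that in which the length and GC trend was taken out, which left 5 negative, Cox7a1 being at +0.10. Without Control 2 it was also Cox7a1 that turned positive (+0.06).

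Cox6b2, the testis form of the subunit at the contact between the monomers of the complex IV dimer, was at 55.81 and 60.11 FPKM in the Control pair and 36.46 and 40.23 FPKM in the Shh-Stk11 pair. Both Shh-Stk11 values lay well below both Control values, with a log2 fold change of -0.60 (SE 0.12, adjusted p = 0.0731) and a 95% interval from -0.90 to -0.30. With the length and GC trend taken out the estimate was -0.28 (adjusted p = 0.231). Its adjusted p ranged from 0.0679 to 0.317 over the alternatives. Estimates for markers of cell types had both signs, but none of those with a higher level in Shh-Stk11 lungs passed the threshold. Of 7 ciliated cell genes tested, 6 passed the threshold and all 7 had negative estimates (median -1.62), with a summed level of 86.88 and 94.09 FPKM in the Control pair and 31.69 and 28.24 FPKM in the Shh-Stk11 pair. All 9 red blood genes tested had negative estimates (median -0.56, 1 past the threshold), with sums of 5723 and 5919 FPKM against 3819 and 4198 FPKM, as did all 8 mesenchymal genes (median -0.26, 0 past the threshold), with sums of 1141 and 1035 FPKM against 939.3 and 940.9 FPKM. Of 8 epithelial genes, 7 had positive estimates (median 0.21, 0 past the threshold), with groups that did not overlap in 5 of these, beside 19.2% of all genes tested, and the 5 immune genes had a median of 0.03, with 3 positive. The part of these cell types in the level of Cox6b2 and the other isoforms was not tested. Cox6b1, the widely expressed form, was at 647.1 and 796 FPKM in the Control pair and 585.7 and 718.5 FPKM in the Shh-Stk11 pair, with overlap (log2 fold change -0.15, SE 0.20, adjusted p = 0.784). Cox6b2 thus amounted to 8.62% and 7.55% of Cox6b1 in Control and 6.23% and 5.60% in Shh-Stk11 lungs.

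The RefSeq promoters of this pair are printed because Cox6b2 came closest to the threshold while Cox6b1 did not. Each run is the 250 bases before the start (GRCm38.p6, minus strand of the genome). None of the 3 sets of letters was found in either, so no base is in capitals. The GC content was 54% in Cox6b1 and 54.8% in Cox6b2, and CG pairs numbered 14 and 8.
Cox6b1 (chr7:30626115-30626364): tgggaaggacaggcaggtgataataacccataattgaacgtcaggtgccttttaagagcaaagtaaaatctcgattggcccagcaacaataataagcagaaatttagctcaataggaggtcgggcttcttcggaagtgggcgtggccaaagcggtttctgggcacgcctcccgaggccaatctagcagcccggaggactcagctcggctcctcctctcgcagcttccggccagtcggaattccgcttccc
Cox6b2 (chr7:4753095-4753344): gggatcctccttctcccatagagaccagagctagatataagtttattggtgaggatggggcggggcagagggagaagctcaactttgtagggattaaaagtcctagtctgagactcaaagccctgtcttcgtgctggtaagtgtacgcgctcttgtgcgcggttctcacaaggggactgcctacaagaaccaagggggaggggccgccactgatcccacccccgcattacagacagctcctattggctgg

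Cox4i2 and Ndufa4l2 are the isoforms linked to low oxygen. Cox4i2, an isoform known for its expression in lung, was at 64.3 and 73.69 FPKM in the Control pair and 43.32 and 57.46 FPKM in the Shh-Stk11 pair, without overlap (log2 fold change -0.46, SE 0.17, adjusted p = 0.264). Ndufa4l2, a target of the hypoxia-inducible factor HIF-1, was at 110.7 and 114.8 FPKM in the Control pair and 70.59 and 93.04 FPKM in the Shh-Stk11 pair, without overlap (log2 fold change -0.48, SE 0.16, adjusted p = 0.232). Without Shh-Stk11 1 the estimates were -0.26 for Cox4i2 and -0.28 for Ndufa4l2, and with the length and GC trend taken out -0.19 and -0.23. Their widely expressed partners overlapped, with -0.20 for Cox4i1 (adjusted p = 0.697) and 0.02 for Ndufa4 (adjusted p = 0.972). Ndufa4 was first assigned to complex I, hence its name.

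As a share of the partner, Cox4i2 was 8.09% and 7.72% in Control and 6.22% and 6.93% in Shh-Stk11 lungs, and Ndufa4l2 24.4% and 18% in Control and 13.4% and 16.5% in Shh-Stk11 lungs. Both shares were lower in Shh-Stk11 lungs without overlap, though for Ndufa4l2 the gap between Control 2 and Shh-Stk11 2 was smaller than that between the Control libraries. A list of 13 other HIF targets, chosen after these values were seen, had a median log2 fold change of -0.10, with 0 past the threshold and groups that did not overlap in 3, beside 27.6% of all genes tested. A list of 7 pericyte genes, chosen in the same way because both isoforms are known from cells of the vessel wall, had a median of 0.01 with 0 past the threshold, and the summed level was 167.9 and 146.4 FPKM in the Control pair and 135.9 and 169 FPKM in the Shh-Stk11 pair. All 6 endothelial markers had negative estimates, with a median of -0.35 and a summed level of 638.5 and 542.1 FPKM in the Control pair and 438.3 and 468.5 FPKM in the Shh-Stk11 pair. The part of these cell types in the isoform values was not tested.

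**Figure D5:**
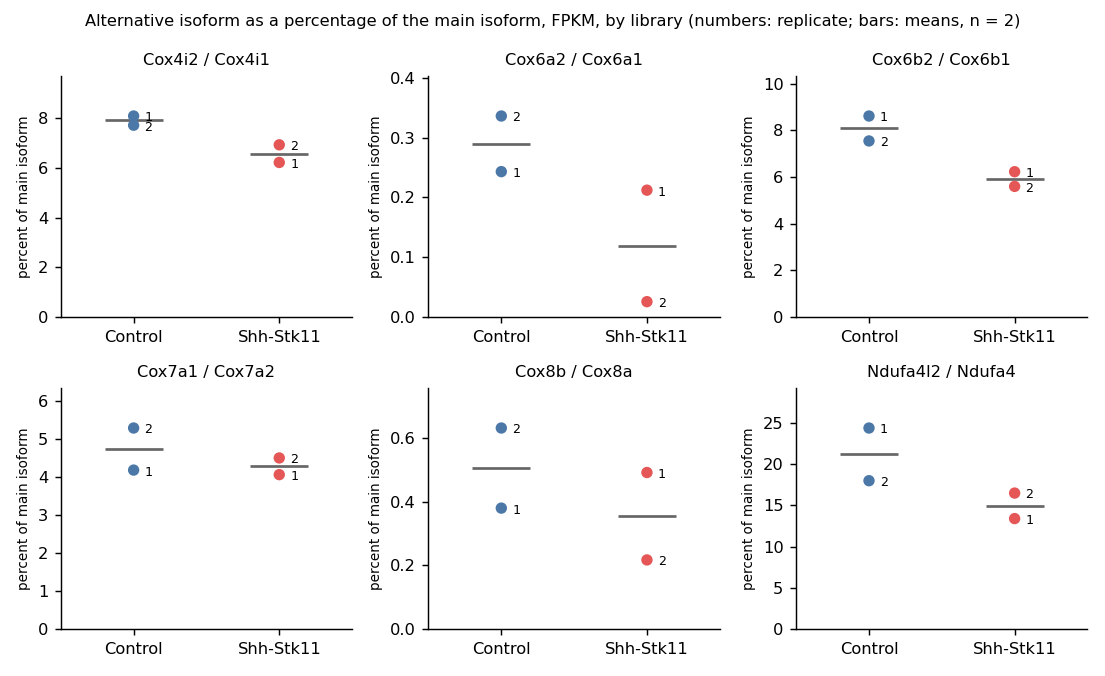
Level of each alternative isoform of complex IV as a percentage of the widely expressed isoform in the same library, by genotype (points are libraries numbered by replicate, bars are means of n = 2, axes start at 0). The genotypes do not overlap for Cox4i2, Cox6a2, Cox6b2 and Ndufa4l2, and overlap for Cox7a1 and Cox8b.

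Of the muscle isoforms Cox6a2 and Cox8b were scarce, and Cox7a1, with a mean of 12.97 FPKM, was near the median of all genes tested. Cox6a2 was at 1.22 and 1.82 FPKM in the Control pair and 0.932 and 0.133 FPKM in the Shh-Stk11 pair, values that corresponded to about 31, 39, 19 and 3 reads. Shh-Stk11 2 stood far below the other libraries, and the log2 fold change was -1.70 (SE 0.67, adjusted p = 0.3, 95% interval from -3.31 to -0.09). Without Shh-Stk11 1 the estimate was -2.77 with an adjusted p of 0.0208, and without Shh-Stk11 2 it was -0.63. Cox8b was at 1.52 and 3.05 FPKM in the Control pair and 1.66 and 0.965 FPKM in the Shh-Stk11 pair (log2 fold change -0.72, SE 0.39, adjusted p = 0.455). The estimate for Cox8b was -1.20 without Control 1, -0.24 without Control 2, -1.08 without Shh-Stk11 1, -0.36 without Shh-Stk11 2 and -0.27 with the length and GC trend taken out. Cox7a1 was at 11.08 and 17.35 FPKM in the Control pair and 9.80 and 13.64 FPKM in the Shh-Stk11 pair (log2 fold change -0.26, SE 0.25, adjusted p = 0.68). The last pair of genes had overlapping groups.

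Markers of heart muscle were highest and lowest in the same libraries as Cox6a2 and Cox8b. The 14 markers summed to 139.7 and 301.1 FPKM in the Control pair and 176.5 and 71.05 FPKM in the Shh-Stk11 pair. Of these, 5 were below the filter of the test, and the 9 tested all had negative estimates, with a median of -0.86, but 0 passed the threshold and the groups overlapped in all 9. The atrial myosin light chain Myl7 was at 42.34 and 108.3 FPKM in the Control pair and 58.6 and 17.22 FPKM in the Shh-Stk11 pair, and Nppa and Nppb were at 0.290 FPKM or less throughout. Cox8b followed the summed markers in the order of all 4 libraries, whereas Cox6a2 was higher in Control 1 than in Shh-Stk11 1 and the markers were not. The 8 skeletal muscle markers, of which 3 were tested and 0 passed, summed to 14.14 and 25.29 FPKM in the Control pair and 15.98 and 13.32 FPKM in the Shh-Stk11 pair, in the same order of libraries as the heart markers. The part of heart or skeletal muscle in the 3 muscle isoforms was not tested.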

How the data were processed

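RNA-seq was analysed in 4 whole-lung libraries of E16.5 embryos (Control and Shh-Stk11, n = 2 each, grouped by the genotype label). The study states single-end sequencing of 50 bases from total RNA. The authors deposited 1 table with an FPKM value for each gene in each library. The submitters' processing notes name TopHat2 2.0.13 and Cufflinks 2.2.1 and the builds GRCm38 and mm9, so which build underlies the table is not given in the sources used here and gene positions are not printed. Further scaling by the authors is not known. Positions of promoters are those of RefSeq GRCm38.p6. All 4 value columns were used and 0 were left out.

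Symbols were matched to GENCODE M21 directly (20242 genes) or through synonyms (1918 genes), and 396 stayed unmatched. The longest transcript of a gene gave its length and GC content. FPKM values are not counts, so limma 3.58.1 in R 4.3.3 (lmFit, eBayes with trend) was run on log2(FPKM + 0.1) for the 13770 genes that averaged 0.5 FPKM or more, genotype as the only term, two-sided, with Benjamini-Hochberg adjustment over all of them and a threshold of 0.05. Fold changes on this scale understate changes of low genes. Values after ± are SDs, and intervals are those of limma at 95%. P-values measure the spread between these libraries, which the study calls independent biological replicates. The fit was tested on simulated data. Of 1737 low genes, 75.5% had values that, once scaled between libraries, were all whole multiples of 1 step (tolerance 0.02). The step was fitted for each gene and taken as the value of 1 read. Depth was estimated from it assuming fragments of 200 bases. Intervals for low counts would cover counting error only.

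The genes and lists were chosen with earlier results of these data known. Named genes were, by rule, those past the threshold, in each complex the highest, the largest rise and the largest fall, isoform pairs, X-linked genes, genes next to the minimum of 1 FPKM, and symbols taken in that are no subunit. Other names were chosen after values were seen. Values of 1 gene are not reported here, though it is counted in the summaries. Alternatives were pseudocounts of 1 and 0.01, filters of 0.1 and 5 FPKM or none, quantile and median ratio scaling, removal of the length and GC trend, eBayes without trend, a replicate block, leaving out each library, and, added after seeing the data, an equal sum of FPKM and crossed replicate numbers. Sharing between genes was measured as the share of 50-base stretches found in transcripts of other genes.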

Additional observations from a re-analysis of the deposited data

How the results depend on the processing

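With only 2 libraries per genotype, deposited as FPKM, small changes could not be resolved, and the lone library left in an arm when another is left out is assumed to vary like the rest. No gene of oxidative phosphorylation was past the threshold under any alternative that used all 4 libraries. Without Shh-Stk11 1 the estimate of Cox6a2 was -2.77, but it rested on 0.133 FPKM, about 3 reads, in Shh-Stk11 2. Cox6a2 also reached the minimum of 1 FPKM only through the Control libraries. The median of the 89 genes ranged from -0.299 (without Shh-Stk11 2) to -0.023 (without Control 2) on leaving out a library, with -0.297 without Control 1 and -0.030 without Shh-Stk11 1. Quantile normalization gave -0.056, median ratio scaling -0.123 and removal of the length and GC trend +0.012. An equal sum of FPKM, which moved the median of all genes to 0.108, gave -0.006. The replicate block left the median at -0.165, with 0 of the 89 genes past the threshold and 13 of all genes, against 313 without the block. Same-numbered libraries did not deviate together over all genes (r = -0.114, across genes), and with crossed replicate numbers 675 genes passed, 0 of them among the 89. Without a filter on low values 1 gene of all passed, and without Control 1, Control 2, Shh-Stk11 1 and Shh-Stk11 2 the counts were 49, 38, 169 and 191. With an equal sum of FPKM 168 passed, with the length and GC trend removed 188, with at least 5 FPKM 200.

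Of 39 named genes, 25 turned sign under at least 1 alternative, none of them past the threshold. After removal of the length and GC trend, Atp5b was at 0.087, Atp5g2 0.047, Atp5g3 0.196, Cox4i1 0.073, Cox6a1 0.219, Cox6b1 0.139, Cox7a1 0.102, Cox7a2 0.152, Cox8a 0.171, Ndufa1 0.330, Ndufa3 0.055, Ndufaf2 0.093, Sdhb 0.033, Uqcr10 0.164 and Uqcrh 0.105, and Cycs at -0.029 and Ndufaf4 at -0.147. With an equal sum of FPKM, Atp5b was at 0.106, Atp5g1 0.157, Atp5g3 0.107, Cox4nb 0.064, Cox6a1 0.037, Cox6b1 0.013, Cox7a2 0.035, Cox7b 0.105, Ndufa1 0.145, Ndufaf2 0.028 and Sdhb 0.002. With quantile normalization, Atp5b was at 0.067, Atp5g1 0.101, Atp5g3 0.093, Cox4i1 0.005, Cox7b 0.044 and Ndufa1 0.091. With median ratio scaling, Atp5g1 was at 0.040 and Ndufa1 at 0.028. On leaving out a library the ranges were -0.032 to 0.151 for Atp5f1, -0.095 to 0.156 for Atp5sl, -0.094 to 0.328 for Cycs, -0.223 to 0.267 for Ndufa4, -0.057 to 0.264 for Ndufa5, -0.087 to 0.276 for Ndufaf4, -0.085 to 0.120 for Ndufs1, -0.145 to 0.040 for Atp5b, -0.205 to 0.202 for Atp5g1, -0.206 to 0.103 for Atp5g3, -0.295 to 0.004 for Cox6b1, -0.581 to 0.061 for Cox7a1, -0.289 to 0.041 for Cox7a2, -0.222 to 0.116 for Cox7b, -0.186 to 0.159 for Ndufa1, -0.245 to 0.003 for Cox6a1 and -0.375 to 0.022 for Cox8a. Without a change of sign, leaving out a library moved Atp5g2 between -0.407 and -0.042, Atp5s -0.518 and -0.054, Cox4i1 -0.329 and -0.065, Cox4nb -0.169 and -0.016, Ndufa3 -0.445 and -0.108, Ndufaf2 -0.210 and -0.050, Ndufb11 -0.484 and -0.172, Ndufs8 -0.504 and -0.094, Sdha -0.692 and -0.030, Sdhb -0.303 and -0.010, Uqcr10 -0.434 and -0.025, Uqcrb 0.107 and 0.222, and Uqcrh -0.327 and -0.075, in each case but Uqcrb with the smallest size without Control 2 or Shh-Stk11 1. Ppargc1a stayed between 1.451 and 1.934 in the settings that kept it, and the filter of at least 5 FPKM removed it.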
